A study of Mus musculus with 6 samples.

Results

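The enzymes that feed pyruvate into the mitochondrial citric acid (TCA) cycle, turn that cycle and break down fatty acids were followed in T cells after co-culture with cisplatin-pretreated ovarian cancer cells. They are 31 genes, chosen by name from the 54532 genes of the table: 5 of the pyruvate dehydrogenase (PDH) complex, 15 of the TCA cycle and its cytosolic counterparts, 2 carnitine palmitoyltransferases of the carnitine shuttle and 9 of mitochondrial beta-oxidation. After co-culture with cisplatin-pretreated ID8 cells, 17 of the 31 fell and 0 rose, beside 29.0% of all tested genes that fell and 27.5% that rose. The falls were largest in fatty acid oxidation, where 9 of 11 genes fell with a median log2 fold change of -0.59, and in isocitrate dehydrogenase 1 (Idh1), whose control level was 2.31 times its level with cisplatin. Most of the core TCA cycle and PDH subunits, among them Cs, Ogdh, Pdha1, Pdhb and the 3 Idh3 subunits, did not pass the test. The groups also differed in cell markers. Summed levels of ID8 cell markers were lower with cisplatin, and those of T-cell, B-cell and myeloid markers were higher. Changes within T cells and a different mix of cells cannot be told apart here.

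T cells had been isolated from spleens of C57BL/6 mice with a pan T-cell kit, kept with IL-2 and activated with beads carrying anti-CD3 and anti-CD28 antibodies. They were co-cultured with ID8, a mouse ovarian cancer cell line that derives from ovarian surface epithelium, and their polyadenylated RNA was sequenced. In 3 libraries the ID8 cells had been pretreated with 40 µM cisplatin (cisplatin), a platinum drug that crosslinks DNA, and in 3 libraries with the vehicle PBS (control). The comparison asks how tumour cells that have met the drug alter the RNA of T cells beside them. Both groups therefore shared the mouse strain, the activation and the tumour cell line, and by the design the drug was given to the ID8 cells before the co-culture. The paper calls the 3 samples of a group independent in a figure caption and states that cellular experiments were done in triplicate. Neither the labels nor the methods say whether the 3 libraries of a group came from separate mice or cultures. The p-values therefore measure the spread between these libraries, which may be technical.

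The unit was FPKM, fragments divided by gene length and by a factor for the reads of the library, which allows levels of different genes to be compared per length. Reads on genes, rebuilt from the FPKM, ranged from 30847321 to 32169496 in the cisplatin libraries and from 30606569 to 31255205 in the control libraries. None of the 24 T-cell identity genes averaged under 0.5 FPKM, and their summed FPKM was 3208 to 3280 with cisplatin and 2038 to 2165 in control, with 23 of 24 above all control libraries. ID8 cell markers were also read: their summed FPKM was 283 to 293 with cisplatin and 1816 to 1906 in control, 20 of 22 lay below all control libraries, and only Krt7 and Igfbp5 were under 0.5 FPKM on average. The 10 B-cell markers summed to 3652 to 3724 FPKM with cisplatin and 1710 to 1798 in control, and the 12 myeloid markers, of which S100a8 and S100a9 averaged under 0.5 FPKM, to 129 to 148 and 65.7 to 70.7. No marker of these lists was at 0 in every library. These marker lists moved with the groups in every result that follows, and their part in the results was not tested. In such bulk samples, fewer cells of a type and less RNA per cell cannot be told apart.

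Pyruvate from glucose enters mitochondria and is turned by the PDH complex into acetyl-CoA, which citrate synthase joins to oxaloacetate to start the TCA cycle. Long-chain fatty acids reach the mitochondrial matrix on carnitine and are shortened there by beta-oxidation, each round of which uses a dehydrogenase, a hydratase, another dehydrogenase and a thiolase, and yields more acetyl-CoA. Activated effector T cells are known for high glycolysis and for using the TCA cycle as a source of building blocks, whereas memory and regulatory T cells are known to lean more on fatty acid oxidation.

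To set promoters of both outcomes side by side, up to 150 bases before the gene start are shown for the 3 genes with the largest falls, Idh1, Cpt2 and Echs1, and for 2 genes that did not pass the test, Cs and Hadhb. They were read from RefSeq's promoter table (GRCm38.p6), run 5' to 3' on the gene's strand and lie upstream of the annotated start, and capitals mark the GC box GGGCGG or its reverse complement CCGCCC and the CCAAT box or its reverse complement ATTGG. The positions are chr1:65186501-65186650 (minus strand), chr4:107923611-107923760 (minus), chr7:140116477-140116626 (minus), chr10:128337577-128337726 (plus) and chr5:30155163-30155247 (plus). The last is the whole gap of 85 bases between the gene models of Hadha and Hadhb, which start in opposite directions.
Idh1: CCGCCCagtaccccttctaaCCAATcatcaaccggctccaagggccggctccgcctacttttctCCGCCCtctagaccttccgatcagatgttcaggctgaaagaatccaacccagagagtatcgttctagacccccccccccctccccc
Cpt2: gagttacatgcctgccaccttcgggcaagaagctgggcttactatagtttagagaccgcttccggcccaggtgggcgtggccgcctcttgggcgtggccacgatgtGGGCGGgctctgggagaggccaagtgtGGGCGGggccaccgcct
Echs1: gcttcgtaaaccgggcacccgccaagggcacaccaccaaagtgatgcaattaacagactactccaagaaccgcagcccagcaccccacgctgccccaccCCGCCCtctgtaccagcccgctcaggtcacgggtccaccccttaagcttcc
Cs: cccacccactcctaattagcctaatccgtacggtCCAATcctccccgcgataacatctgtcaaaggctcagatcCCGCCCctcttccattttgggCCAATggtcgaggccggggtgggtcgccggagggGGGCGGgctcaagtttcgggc
Hadhb: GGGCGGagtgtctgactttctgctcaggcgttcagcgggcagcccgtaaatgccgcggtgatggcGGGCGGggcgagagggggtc

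Upstream sequence was found for 29 of the 31 genes and was searched over 250 bases, on both strands, for 6 motifs chosen after the expression values were seen. GGGCGG was present in 22 of 29 genes (75.9%) against 32.7% of the 32851 promoters of the table, which hold genes of every type and level. Of the genes that fell and had a sequence, 14 of 16 held it, as did 8 of the 13 that did not pass the test. CCAAT was present in 12 of 29 (41.4%) against 33.8%, and ACGTG, the core of the hypoxia response element, in 5 (Pdhb, Idh3g, Ogdh, Mdh1 and Acadvl, 17.2%) against 16.6%. ACGTG is also part of the E-box CACGTG, which no member held, against 6.02% of all promoters. The NRF1 core TGCGCA was in Acadm alone (3.45%) against 6.43%, and TCAAGGTCA, the element of the estrogen-related receptors, was in none of the 29 against 0.387%. The median GC content was 61.2% for the members and 52.4% for all promoters. These matches describe letters in a window and show no binding.

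All 31 genes passed the filter on low values (a mean of at least 0.5 FPKM) and were tested with limma on log2(FPKM + 0.1) among 15874 genes. Fold changes are cisplatin minus control on that scale, and a gene is said to rise or fall where its Benjamini-Hochberg adjusted p was under 0.05. Over all tested genes 29.0% fell and 27.5% rose by this rule, so that a large share of the transcriptome moved each way. Of the members 17 of 31 (54.8%) fell and 0 rose. With a fold change of at least 2 in addition, 12.8% of all genes fell and 4.11% rose, and among the members 1 (Idh1) fell and 0 rose. In 20 of the 31 members all cisplatin libraries lay below all control libraries, in 3 (Pdhb, Cs and Ogdh) all lay above, and in 8 the groups overlapped, beside 32.3% and 31.9% of all genes. The median log2 fold change was -0.20 over the members, -0.14 over the 20 genes of the PDH complex and TCA cycle and -0.59 over the 11 genes of fatty acid oxidation, beside 0.03 over all tested genes. The mean log2 level of the fatty acid oxidation genes was 3.74 to 3.79 in the cisplatin libraries and 4.24 to 4.29 in the control libraries, and that of the PDH and TCA cycle genes 4.04 to 4.09 and 4.24 to 4.29. The libraries of a group differed little, with a coefficient of variation between 0.563% and 12.3% and a median of 3.80%.

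**Figure D1:**
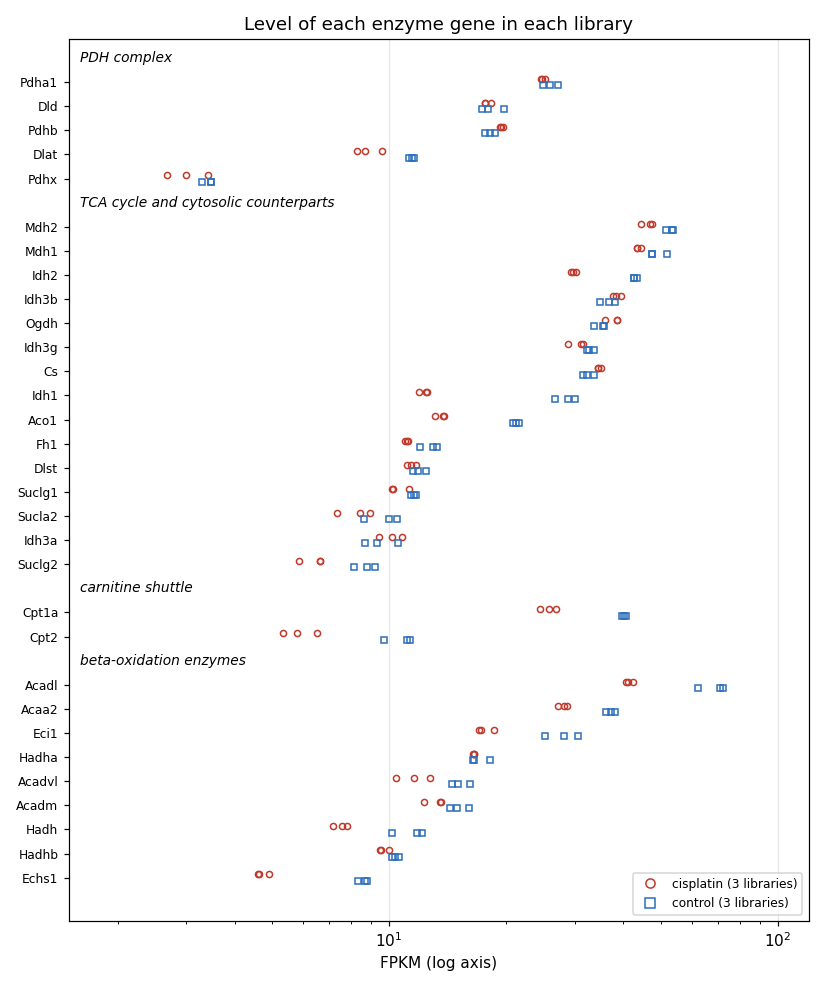
FPKM (log axis) of each of the 31 enzyme genes in each of the 3 cisplatin (circles) and 3 control (squares) libraries, grouped by role and ordered by level. The circles of Idh1, Aco1, Idh2, Cpt1a, Cpt2, Acadl and Echs1 lie to the left of all squares, while those of Pdha1, Dld, Idh3a, Idh3b and Hadha overlap them.

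The genes were ordered by mean FPKM, which depends on the annotated gene length and describes RNA, not amounts of enzyme. Hadha, with a length of 8730 bases, had 4313 to 4877 reads a library, and Acadl, with 2005 bases, had 2642 to 4342. In control Acadl was the highest of the 31 with a mean of 68.6 FPKM, followed by Mdh2 (52.9), Mdh1 (48.9), Idh2 (43.0) and Cpt1a (40.2), and Pdhx the lowest at 3.42. With cisplatin Mdh2 (46.3), Mdh1 (43.9) and Acadl (41.4) led, and the ranges of Mdh1 and Mdh2 overlapped in both groups. Idh1 moved from rank 11 in control to rank 18 with cisplatin, and Idh3b, which did not pass the test, from rank 7 to rank 4.

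In the PDH complex, which commits pyruvate to acetyl-CoA, 1 of 5 genes fell. Dlat, the E2 core enzyme that carries the acetyl group on lipoic acid, read 8.28, 8.65 and 9.56 FPKM in cisplatin libraries 1 to 3 and 11.6, 11.4 and 11.3 in control libraries 1 to 3. The cisplatin libraries were all lower and more spread than the tight control libraries. Its log2 fold change was -0.37 (SE 0.061, limma adjusted p = 0.0020). The E1 subunits, which decarboxylate pyruvate, did not pass the test: Pdha1 read 24.8 ± 0.347 FPKM (SD, n = 3) with cisplatin and 26.0 ± 1.18 in control, and Pdhb 19.4 ± 0.183 and 18.2 ± 0.519. Pdha1 overlapped between the groups and its 95% interval ran from -0.16 to 0.04, while Pdhb lay above control in all 3 libraries by 0.09 (interval 0.01 to 0.18, limma adjusted p = 0.064). Exons of Pdha1 overlap those of Map3k15 on the other strand, and whether reads were counted by strand is not given, though Map3k15 averaged 1.05 FPKM. Dld, the E3 dehydrogenase that the PDH and 2-oxoglutarate complexes share, changed by -0.03 (-0.16 to 0.10), and Pdhx, which anchors E3 to the core, by -0.17 (-0.42 to 0.07), neither past the test. Pdhx rests on 341 to 446 reads a library, the fewest of the 31.

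Both NADP-dependent isocitrate dehydrogenases fell, and no subunit of the NAD-dependent enzyme passed the test. Idh1 (chr1:65158616-65186500, minus strand), the cytosolic NADP-dependent enzyme, read 11.9, 12.5 and 12.4 FPKM in the cisplatin libraries and 28.8, 26.7 and 30.0 in the control libraries. No cisplatin library came near a control library, and the fall of 1.21 on the log2 scale was the largest of the 31 (SE 0.052, limma adjusted p = 3.5e-06). Idh2 (chr7:80094846-80115392, minus strand), its mitochondrial NADP-dependent counterpart, read 29.7, 30.3 and 29.3 FPKM with cisplatin and 43.4, 42.8 and 42.7 in control. Both groups were tight and well apart, with a log2 fold change of -0.53 (SE 0.028, limma adjusted p = 9.0e-06). The NAD-dependent enzyme is the form that works in the cycle itself. Its catalytic subunit Idh3a changed by 0.09 (95% interval -0.11 to 0.30), Idh3b by 0.07 (-0.03 to 0.17) and Idh3g by -0.11 (-0.21 to -0.01, limma adjusted p = 0.070). All cisplatin libraries of Idh3g lay below control, and it passed as a fall with protein-coding genes alone. Idh3b passed as a rise with libraries scaled to the reads on genes. Idh3b shares exon positions on the other strand with Nop56 (24.1 FPKM on average), so its level is uncertain.

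Citrate synthase and aconitase stand before that step. Cs, the entry enzyme of the cycle, read 34.5, 35.0 and 34.4 FPKM with cisplatin and 33.7, 32.2 and 31.5 in control. All cisplatin libraries were slightly higher, by 0.10 on the log2 scale (interval 0.01 to 0.18), and this missed the threshold (limma adjusted p = 0.054), which it passed without control library 1 (0.026). Aco1 (chr4:40143081-40198338, plus strand), the cytosolic aconitase that doubles as an iron regulatory protein, read 13.7, 13.8 and 13.1 FPKM with cisplatin and 21.3, 20.8 and 21.6 in control. Its groups were well separated, and it fell by 0.64 on the log2 scale (SE 0.039, limma adjusted p = 1.5e-05).

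Downstream, neither Ogdh nor Dlst of the 2-oxoglutarate dehydrogenase complex passed the test. Ogdh, its E1 component, read 36.0, 38.7 and 38.7 FPKM with cisplatin and 35.6, 35.7 and 33.6 in control, just above control in all 3 libraries, with a log2 difference of 0.11 (0.01 to 0.22) and a limma adjusted p of 0.066, or 0.029 without cisplatin library 1. Dlst, its E2 core, changed by -0.07 (-0.18 to 0.04) with overlapping groups. Of the succinyl-CoA ligase subunits, the GTP-forming Suclg2 fell from 8.76, 8.13 and 9.21 FPKM in control to 6.64, 6.63 and 5.87 with cisplatin. All its cisplatin libraries were below control, with a log2 fold change of -0.44 (SE 0.074, limma adjusted p = 0.0022). The ATP-forming Sucla2 changed by -0.23 (-0.47 to 0.01, limma adjusted p = 0.088) and the shared subunit Suclg1 by -0.13 (-0.26 to -0.01, limma adjusted p = 0.073). Without control library 2 Sucla2 passed (limma adjusted p = 0.035), as did Suclg1 without cisplatin library 2 (0.021). Fumarase (Fh1) and the malate dehydrogenases Mdh1 (cytosolic) and Mdh2 (mitochondrial), which close the cycle and carry reducing equivalents across the membrane, fell by 0.20, 0.16 and 0.19 on the log2 scale (limma adjusted p = 0.012, 0.019 and 0.0040). Their cisplatin libraries were all below control, but the calls of Fh1 and Mdh1 were lost when libraries were scaled to the reads on genes (limma adjusted p = 0.079 and 0.20). Mdh1 was also lost without cisplatin library 1 (limma adjusted p = 0.055) or 2 (0.058), and its exons overlap Wdpcp (0.433 FPKM) on the other strand.

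**Figure D2:**
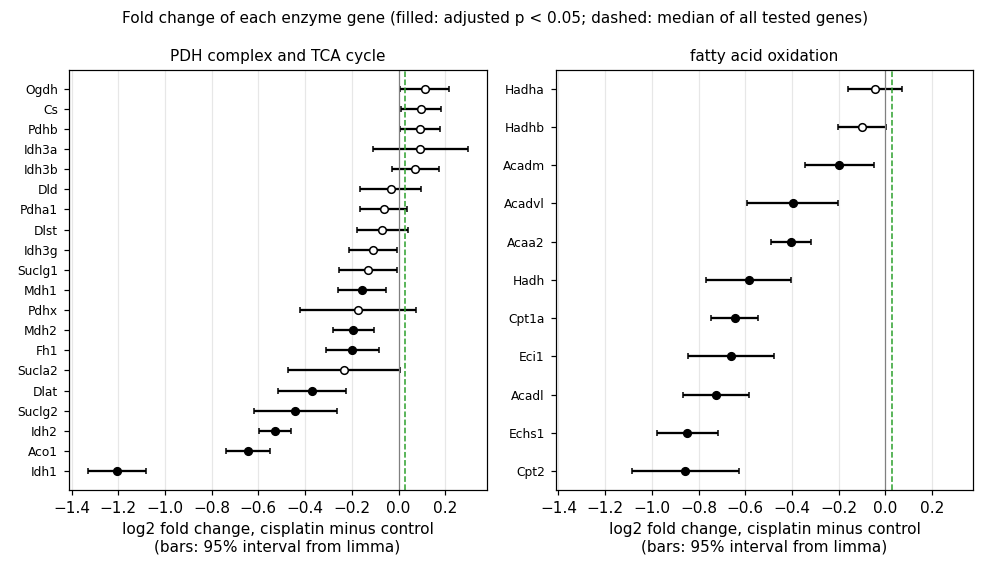
Log2 fold change of each enzyme gene, cisplatin minus control, with its 95% interval from limma (filled where the adjusted p was under 0.05), for the PDH complex and TCA cycle and for fatty acid oxidation. The dashed line is the median of all tested genes (0.03). In fatty acid oxidation 9 of 11 points are filled and lie between -0.86 and -0.20, while in the other panel 8 of 20 are filled, with Idh1 at -1.21.

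Both carnitine palmitoyltransferases fell. Cpt1a (chr19:3323301-3385732, plus strand), the outer-membrane enzyme that loads long-chain acyl groups on carnitine and sets the pace of their entry, read 26.9, 25.7 and 24.4 FPKM with cisplatin and 39.6, 40.7 and 40.2 in control. Control libraries were nearly the same and far above the cisplatin libraries, with a log2 fold change of -0.65 (SE 0.042, limma adjusted p = 2.2e-05). Cpt2 (chr4:107903981-107923610, minus strand), the inner-membrane enzyme that releases the acyl-CoA into the matrix, read 6.54, 5.79 and 5.32 FPKM with cisplatin and 11.3, 11.1 and 9.72 in control. It had the largest fall of fatty acid oxidation, -0.86 (SE 0.095, limma adjusted p = 3.0e-04), from 412 to 811 reads a library, and its groups did not overlap. Slc25a20, the carrier that moves acylcarnitine across the inner membrane between these enzymes, is not among the 31 genes and was named after its values were seen. It rose from 5.39 ± 0.269 to 6.37 ± 0.284 FPKM (SD, n = 3), or by 0.24 on the log2 scale (limma adjusted p = 0.017). That call was lost without cisplatin library 2 (limma adjusted p = 0.059), cisplatin library 3 (0.057) or control library 3 (0.057). With libraries centred on the T-cell identity genes, which lowers every fold change by the same amount, its log2 fold change turned to -0.29.

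Of the acyl-CoA dehydrogenases, which open each round of beta-oxidation and differ in chain length preference, all 3 fell. Acadl (chr1:66830839-66863277, minus strand), for long chains, read 40.7, 42.3 and 41.1 FPKM with cisplatin and 72.1, 71.2 and 62.4 in control. Control library 3 was lower than the other two control libraries and still well above all cisplatin libraries, and the log2 fold change was -0.72 (SE 0.059, limma adjusted p = 6.8e-05). Acadvl, for very long chains, read 11.6, 12.7 and 10.4 FPKM with cisplatin and 15.1, 16.1 and 14.5 in control, a log2 fold change of -0.40 (SE 0.081, limma adjusted p = 0.0053). Its groups did not overlap, and its exons overlap Dvl2 (9.35 FPKM) on the other strand. Acadm, for medium chains, had the smallest fall, from 15.1 ± 0.859 FPKM (SD, n = 3) to 13.1 ± 0.746, a log2 fold change of -0.20 (SE 0.062, limma adjusted p = 0.031). That call was lost without cisplatin library 2 (limma adjusted p = 0.085), control library 2 (0.091) or control library 3 (0.070), and with libraries scaled to the reads on genes (0.16).

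Of the enzymes that follow, 4 of 6 fell and both subunits of the trifunctional protein did not pass the test. Echs1 (chr7:140105710-140116476, minus strand), the short-chain enoyl-CoA hydratase, read 4.62, 4.61 and 4.92 FPKM with cisplatin and 8.64, 8.29 and 8.77 in control, with wide separation and a log2 fold change of -0.85 (SE 0.054, limma adjusted p = 2.1e-05). Its exons overlap Paox (3.53 FPKM) on the other strand, so its level is uncertain. Hadh, the 3-hydroxyacyl-CoA dehydrogenase for shorter chains, fell from 11.4 ± 1.03 FPKM to 7.52 ± 0.311 (SD, n = 3), or by 0.59 on the log2 scale (limma adjusted p = 6.5e-04). Acaa2, the thiolase that cuts off acetyl-CoA, fell from 37.2 ± 1.05 to 28.0 ± 0.703 FPKM, a log2 fold change of -0.41 (limma adjusted p = 1.1e-04), and Eci1, an isomerase needed for unsaturated chains, from 28.0 ± 2.72 to 17.6 ± 0.877 FPKM, a log2 fold change of -0.66 (limma adjusted p = 3.8e-04). In all 4 genes every cisplatin library was below every control library.

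Hadha and Hadhb encode the subunits of the mitochondrial trifunctional protein, which joins the last 3 steps of beta-oxidation for long chains, and their gene models lie 85 bases apart on chromosome 5. Hadha read 16.4, 16.6 and 16.5 FPKM with cisplatin and 16.5, 16.5 and 18.2 in control. The groups overlapped, only control library 3 standing higher, and the log2 difference was -0.05 (95% interval -0.16 to 0.07, limma adjusted p = 0.45). Hadhb read 9.48, 9.54 and 9.97 FPKM with cisplatin and 10.6, 10.2 and 10.4 in control. It was just below control in all libraries, with a log2 difference of -0.10 (-0.20 to 0.0019, limma adjusted p = 0.086). Both intervals lie above the fold changes of Echs1, Hadh and Acaa2, though no test of that difference between genes was run. Hadha overlaps an exon of Garem2 on the other strand, which averaged 0.0149 FPKM.

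Ratios of 2 genes within a library do not depend on a factor applied to the whole library (quantile normalization is no such factor), so 10 pairs of related enzymes were compared as log2 ratios. Groups did not overlap in 5 pairs and overlapped in 5. Among all tested single genes 32.3% lay below and 31.9% above control without overlap, and the share among other gene pairs was not counted. With 3 libraries a group the smallest two-sided exact permutation p is 0.1, which adjustment over the 10 pairs raised to 0.2, so no pair could pass 0.05. Idh1 to Idh2 shifted most: Idh1 was 0.401, 0.413 and 0.424 times Idh2 (in FPKM) in the cisplatin libraries and 0.664, 0.624 and 0.703 times in the control libraries. Log2 ratios were taken on FPKM + 0.1. The difference in log2 ratio was -0.68 (SE 0.055, exact permutation p = 0.1, adjusted 0.2). Acadl was 2.99, 3.45 and 3.03 times Acadm with cisplatin and 5.04, 4.45 and 4.16 times in control, a difference of -0.53 (SE 0.10, exact permutation p = 0.1, adjusted 0.2). In both pairs the groups were apart, with the lower ratio in every cisplatin library.

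Dlat to Dlst, the E2 cores of the PDH and 2-oxoglutarate complexes, had a log2 ratio of -0.36 ± 0.12 with cisplatin and -0.06 ± 0.063 in control (SD, n = 3). Their difference of -0.30 had no overlap between groups (exact permutation p = 0.1, adjusted 0.2). Pdha1 to Pdhb differed by -0.16 and Idh3b to Idh3g by 0.18, again without overlap at the same exact permutation p. The other 5 pairs overlapped: Suclg2 to Sucla2 (-0.21), Mdh1 to Mdh2 (0.04), Acadvl to Acadm (-0.20), Hadha to Hadhb (0.05) and Cpt1a to Cpt2 (0.21), with exact permutation p between 0.2 and 0.6 (adjusted 0.29 to 0.60).

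**Figure D3:**
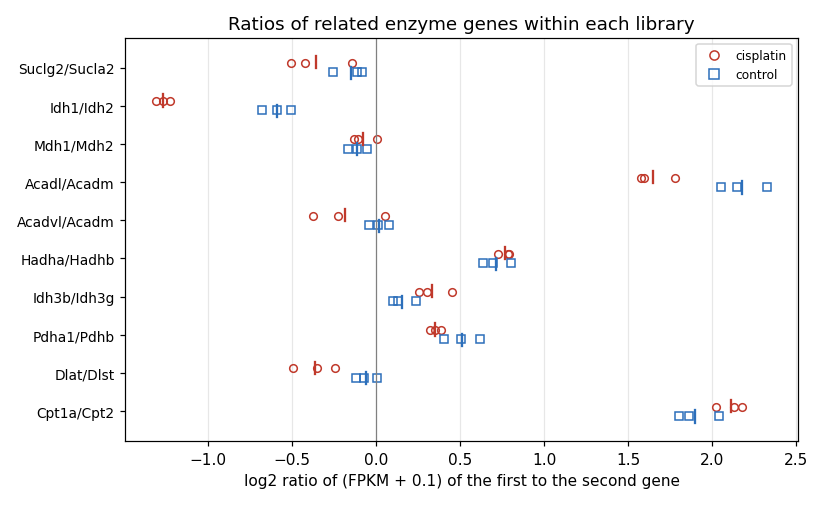
Log2 ratio of (FPKM + 0.1) of 10 pairs of related enzyme genes in each of the 3 cisplatin (circles) and 3 control (squares) libraries, with short lines at the group means. The Idh1/Idh2 circles (means -1.27 with cisplatin and -0.59 in control) and the Acadl/Acadm circles (1.65 and 2.17) lie left of all squares, while those of Hadha/Hadhb and Mdh1/Mdh2 overlap them.

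How the libraries are scaled moved small differences. The library factor used for the FPKM equalled 1.04 times the reads on genes on average with cisplatin and 0.980 times in control. Scaled to the reads on genes instead, the median of all tested genes rose from 0.03 to 0.11, that of the members moved from -0.20 to -0.11, 14 members fell and 4 rose (Pdhb, Cs, Idh3b and Ogdh). Of the 15899 genes tested on that scale 4077 fell and 5309 rose. Quantile normalization, which set the median of all genes to 0.16, gave the same counts of 14 and 4, and changed the split over all genes from 4360 that rose and 4603 that fell to 5884 and 3841. Centred on the T-cell identity genes, which shifts the median of all genes to -0.50 and their split to 862 that rose and 10036 that fell, all 31 fell, 9 of them by at least 2-fold. Centring lowers the fold change of every gene by the same amount, so whether a rise turns follows from its size alone. Relative to the median of all genes, the fatty acid oxidation median was -0.61 on the deposited scale and between -0.61 and -0.62 under the other scalings shown, and the PDH and TCA cycle median -0.17 and between -0.16 and -0.18. Apart from quantile normalization, these scalings in essence apply a factor to the whole library, so these distances were nearly fixed in advance. Under quantile normalization, which could change them more, they were -0.62 and -0.18. Across all 20 alternatives 14 members fell each time: Idh1, Idh2, Aco1, Dlat, Mdh2, Suclg2, Cpt1a, Cpt2, Acadl, Acadvl, Hadh, Acaa2, Echs1 and Eci1.

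**Figure D4:**
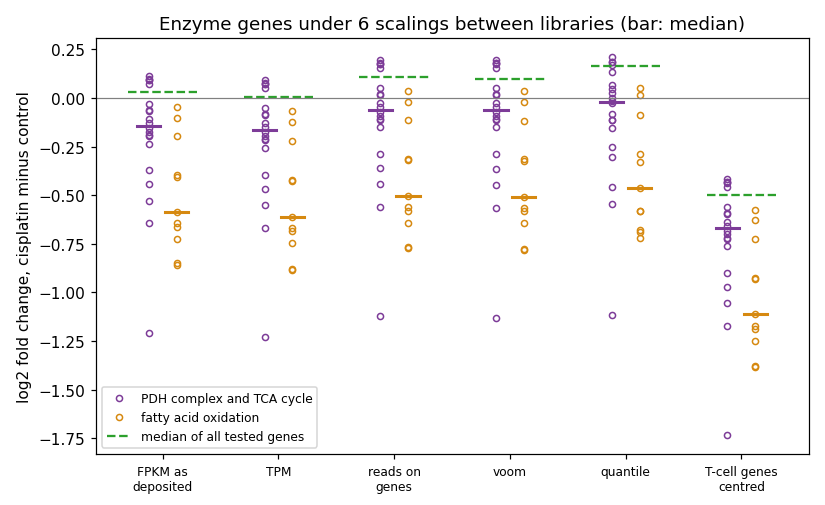
Log2 fold changes of the PDH and TCA cycle genes and of the fatty acid oxidation genes under 6 scalings between libraries, with bars at their medians and dashed lines at the median of all tested genes. The points shift with the dashed line, and the fatty acid oxidation bar stays 0.61 to 0.62 below it. Apart from quantile normalization, the scalings in essence apply a factor to the whole library, so this distance was nearly fixed in advance.

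Around the members, 92 further genes of the same pathways were counted, of which 79 were tested: 42 fell, 17 rose and 20 did not pass. Of the tested neighbours 53.2% fell and 21.5% rose, beside 29.0% and 27.5% of all tested genes, and by at least 2-fold 14 fell and 1 rose, beside 12.8% and 4.11% of all genes. With libraries scaled to the reads on genes 36 fell and 24 rose, with quantile normalization 35 and 24, and centred on the T-cell identity genes 69 and 3. Over all tested genes these scalings gave 4077 falls and 5309 rises of 15899, 3841 and 5884 of 15874, and 10036 and 862 of 15874. The control of PDH and the entry of pyruvate gave 8 of 10 genes falling and a median of -0.78. Pdk1 and Pdk4, kinases that switch PDH off, fell from 73.2 ± 1.73 to 30.4 ± 0.965 FPKM and from 23.4 ± 0.763 to 8.68 ± 0.0560 FPKM (SD, n = 3), or by 1.27 and 1.42 on the log2 scale (limma adjusted p = 5.6e-07 and 4.8e-07). Pcx, which makes oxaloacetate from pyruvate, fell by 1.46 and Mpc1, a subunit of the mitochondrial pyruvate carrier, by 1.10. Pdp2, a phosphatase that switches PDH back on, rose from 4.24 ± 0.215 to 7.13 ± 0.133 FPKM, or by 0.74 (limma adjusted p = 6.3e-05). It kept a positive log2 fold change under every scaling shown, down to 0.21 when centred on the T-cell identity genes. Centring lowers every fold change by the same amount, so that sign follows from the size of the rise of Pdp2. The other catalytic phosphatase Pdp1 and the regulatory subunit Pdpr, named after their values were seen, fell by 0.69 and 0.19 (limma adjusted p = 6.0e-04 and 0.015), and the call of Pdpr was lost with libraries scaled to the reads on genes (limma adjusted p = 0.089).

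Of 21 tested genes of the rest of the cycle and its side entries, 9 fell and 4 rose, with a median of -0.10. The malic enzymes, which turn malate into pyruvate, showed the largest falls: cytosolic Me1 went from 137.0 ± 3.57 to 18.9 ± 0.777 FPKM and mitochondrial Me2 from 121.2 ± 3.72 to 39.9 ± 1.42 (log2 fold changes -2.85 and -1.60, limma adjusted p = 7.1e-08 and 3.2e-07). Gls2, a glutaminase, fell by 1.28. Acod1, which makes itaconate from cis-aconitate in activated macrophages, rose from 1.10 ± 0.104 to 4.87 ± 0.252 FPKM (log2 fold change 2.06, limma adjusted p = 7.1e-06). Among the 12 myeloid markers 8 also lay above all control libraries, and their part in this rise was not tested. The succinate dehydrogenase subunits, which are not among the 31 genes, were named after their values were seen. Of these Sdhc fell by 0.31 and Sdhb rose by 0.44, while Sdha (0.06) and Sdhd (-0.07) did not pass. The direction of Sdhb turned to -0.09 when libraries were centred on the T-cell identity genes.

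Of 27 tested genes that activate, carry and otherwise oxidise fatty acids in or near mitochondria, 15 fell and 4 rose, with a median of -0.24. Acsl4, an acyl-CoA synthetase that favours polyunsaturated chains, fell from 81.7 ± 1.86 to 28.3 ± 1.15 FPKM (log2 fold change -1.53, limma adjusted p = 3.8e-07). Decr1, the dienoyl-CoA reductase for unsaturated chains, fell by 1.33, and Acacb by 1.11, from 1.14 ± 0.134 to 0.474 ± 0.0250 FPKM, a level that passed the filter only through control. Acacb and Acaca make malonyl-CoA, which inhibits Cpt1a. Acaca, named after its values were seen, was the more abundant and rose from 5.12 to 6.18 FPKM on average, or by 0.27 (limma adjusted p = 0.0058), which turned to -0.26 with libraries centred on the T-cell identity genes. The largest rise was that of Etfb, a subunit of the electron transfer flavoprotein that takes electrons from acyl-CoA dehydrogenases, by 0.62 (limma adjusted p = 0.041), from levels of 1.23 to 1.86 FPKM in control to 1.87 to 2.81 with cisplatin that nearly touched. It passed the test only narrowly: without cisplatin library 1 or 3 or control library 1 or 3 the limma adjusted p was 0.12, 0.12, 0.11 and 0.089, and centred on the T-cell identity genes its log2 fold change was 0.09. Etfa, the other subunit, was named after its values were seen. It was more abundant and fell from 35.3 ± 1.40 to 25.5 ± 0.840 FPKM, or by 0.47 (limma adjusted p = 1.2e-04). The flavoprotein's dehydrogenase Etfdh, named in the same way, fell by 0.22 (limma adjusted p = 0.029). That call was lost with libraries scaled to the reads on genes (limma adjusted p = 0.13), quantile normalization (0.63) and voom on the rebuilt reads (0.089). It was also lost without cisplatin library 1 (0.054) or 2 (0.084), or control library 1 (0.063), 2 (0.092) or 3 (0.051). With no filter on low values (0.054) or the replicate number as a block (0.077), Etfdh did not pass either.

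Peroxisomal oxidation, which shortens very long chains, had 7 of 11 tested genes lower and 3 higher, with a median of -0.41. The importer Abcd3 fell by 1.13 and the racemase Amacr by 1.03, and Ehhadh, its bifunctional enzyme, rose by 0.55 (limma adjusted p = 0.0068). Of 10 tested regulators of these pathways 3 fell and 5 rose. Pparg, a fatty acid sensing nuclear receptor, fell by 1.88 from 2.14 ± 0.179 to 0.529 ± 0.209 FPKM (limma adjusted p = 0.0011), and Ppargc1b, a coactivator of mitochondrial genes, rose by 0.92 from 2.77 ± 0.155 to 5.34 ± 0.171 FPKM (limma adjusted p = 5.4e-05). The rises of Ehhadh and Ppargc1b shrank to 0.02 and 0.39 with libraries centred on the T-cell identity genes.

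For scale, all 17 genes of glycolysis and lactate export fell, each by at least 2-fold, with a median of -2.09. Of all tested genes 29.0% fell, and 12.8% fell by at least 2-fold. With libraries scaled to the reads on genes, Hk1 (-0.99) and Pfkp (-0.92) fell by less than 2-fold. Of 25 nuclear-encoded subunits of the respiratory chain 5 fell (20%) and 6 rose (24%), with a median of 0.01, beside 29.0% and 27.5% of all tested genes. The fatty acid oxidation median of -0.59 lay between these lists and the PDH and TCA cycle median of -0.14 close to the respiratory chain, and these differences between lists were not tested.

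**Figure D5:**
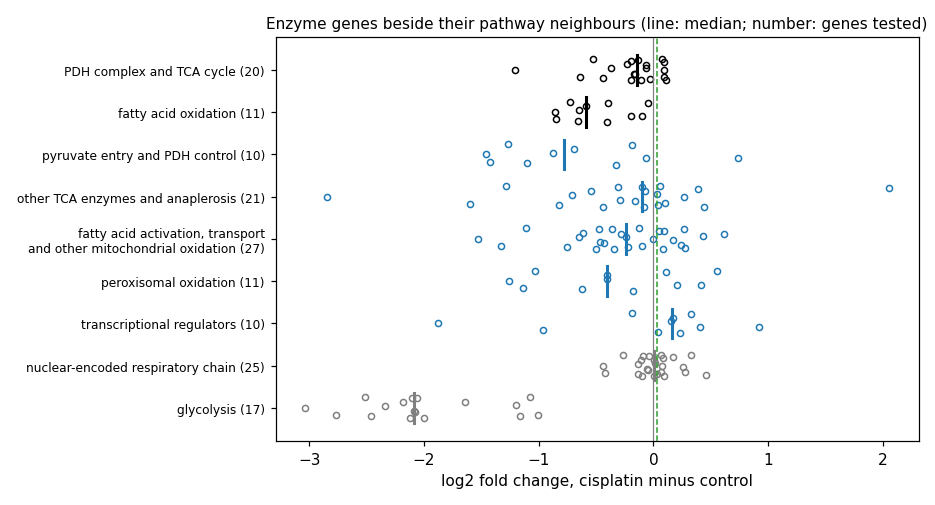
Log2 fold changes, cisplatin minus control, of the tested genes of each list (points), with vertical bars at the list medians and the dashed line at the median of all tested genes (0.03). Fatty acid oxidation (median -0.59) and pyruvate entry and PDH control (-0.78) lie left of the dashed line, the respiratory chain (0.01) on it, and glycolysis (-2.09) farthest to the left.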

How the data were processed

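Sequenced RNA of mouse T cells from co-culture with ID8 cells that had received cisplatin (3 libraries) or PBS (3) was analysed, with libraries grouped by the treatment in the sample labels. The submitters' processing notes name fastp, HISAT2 2.0.5, featureCounts 1.5.0-p3 and the build mm10, while the paper's methods name LifeScope for alignment and counting and DESeq2 for their own tests on raw counts. The authors deposited FPKM values, counts divided by gene length and a library factor. Strand-specific counting and the handling of reads matching several genes are not given in the sources used here, and either could move genes with overlapping or similar copies. Gene coordinates were those of GENCODE M21 (GRCm38) for 53499 of 54409 shared genes and 28 of the 31 members, all but Cpt1a, Acaa2 and Eci1. The deposited table held 0 unused sample columns.

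FPKM times length gave whole reads (within 0.1) for 100% of values above 0. These rebuilt reads give depth and cover counting error only. limma 3.58.1 (R 4.3.3; lmFit, eBayes with trend) was run on log2(FPKM + 0.1) over the 15874 genes averaging 0.5 FPKM or more, with Benjamini-Hochberg adjustment over all of them. A fold change on this scale understates that of low genes. Gene pairs used a two-sided exact permutation test. The members and lists were chosen with earlier results of these data known. Every member may be named, and values per library are given for those past 2-fold, for the 3 largest falls in each of both groups of enzymes and for the pairs described. Of the other lists, genes past 2-fold and the largest rise and fall were named. A few of them are not reported here. Alternatives were pseudocounts of 1 and 0.01, other filters, scalings, variance priors and thresholds, voom on the rebuilt reads, protein-coding genes alone, a replicate block and leaving out each library. The steps were run on simulated counts, in which 199 of 15856 tested genes were changed by at least 2-fold. Of these 193 were recovered, and 7 unchanged genes were called. So few and such large changes do not show how the test handles smaller ones, or data where many genes move. Tables and figures used python 3.11.15, numpy 2.4.6, pandas 2.3.3, scipy 1.17.1 and matplotlib 3.10.9. Upstream sequences came from RefSeq (GRCm38.p6).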

Additional observations from a re-analysis of the deposited data

How the results depend on the processing

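Of 588 fold changes of members recomputed over the alternatives, 517 kept their direction and side of the threshold. Under libraries scaled to the reads on genes, quantile normalization and voom, the members' median moved to -0.11, -0.11 and -0.12, the members that rose numbered 4, 4 and 5, and Acadm, Fh1 and Mdh1 lost their calls. Over all tested genes 5309 of 15899, 5884 of 15874 and 5879 of 18541 rose under these scalings. These scalings turned the small fold changes of Pdha1 (0.0197, 0.00029 and 0.0194), Dld (0.0498, 0.0657 and 0.0497), Dlst (0.0138, 0.0452 and 0.0134) and Hadha (0.0367, 0.0536 and 0.0365), and quantile normalization also those of Pdhx (0.0258) and Hadhb (0.0129). Centred on the T-cell identity genes, 31 members fell, 9 by 2-fold, with a median of -0.73, the neighbours gave 69 falls and 3 rises, and Pdhb (-0.43), Cs (-0.43), Idh3a (-0.44), Idh3b (-0.46) and Ogdh (-0.42) turned. A member rose with a minimum mean of 5 FPKM (1) and with protein-coding genes alone (2), where fewer genes were tested. Leaving out each library gave 0 to 1 members that rose (Ogdh without cisplatin library 1 or Cs without control library 1), fold changes from -0.0740 to 0.0205 for Dld and from -0.0709 to 0.00057 for Hadha, and a Mdh1 to Mdh2 ratio difference from -0.0045 to 0.0660. The replicate number as a block gave 16 falls, without Acadm. Deviations of same-numbered libraries correlated at 0.02, -0.06 and -0.02, so the numbers were not read as pairs. The cause of the changes under other scalings was not tested. With 3 libraries a group, log2 intervals were 0.14 to 0.49 wide, and smaller differences than these allow were not detectable. DESeq2 and edgeR were not run, and voom was the test that used the rebuilt reads.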
